A study of Mus musculus with 12 samples.

Results

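Arterial endothelial cells were taken from 6 single-cell RNA libraries of mouse lymph node, the libraries of the CD45-depleted, CD31-labelled fraction. A barcode was kept as a cell with at least 1000 UMIs (tags that each mark 1 captured RNA molecule), at least 500 detected genes and at most 10% of UMIs from mitochondrial genes. An endothelial cell carried at least 2 UMIs of Pecam1 and Cdh5 together and none of the leukocyte genes Ptprc, Cd79a and Cd3e. A member, called an arterial cell here, carried in addition at least 2 UMIs of Gkn3, Gja5 and Bmx together and none of Fut7, Chst4 and Prox1. By this rule 1010 of 50017 kept cells (2.02%) were members: 179 and 110 in the vehicle libraries, 158 and 325 on day 3 and 108 and 130 on day 7. Throughout, the first value of each pair is from the Cre-negative library and the second from the Cre-positive one.

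All mice were C57BL/6, 7 to 10 weeks old, carried both floxed alleles of Atg12 (ATG12 fl/fl), with or without CDH5 CreER, and all were given tamoxifen 5 times. Cdh5 is expressed throughout endothelium, so the inducible Cre was not restricted to arteries. Oxazolone at 4%, a contact sensitiser, was put on the shaved abdomen. Nodes were taken on day 3 or day 7. Vehicle mice received the acetone and olive oil solvent alone. Each combination of genotype and treatment was 1 library. The members of 5 of the 6 libraries held UMIs of both Xist and Y-linked genes, so those libraries held cells of more than 1 animal. Nothing in the labels says that libraries came from separate days or batches. The edgeR p-values within members measure the spread that remained after additive effects of genotype and treatment, on 2 residual degrees of freedom. edgeR drew the spread of each gene toward that of other genes, with a median of 9.32 prior degrees of freedom. Fits that left out libraries had fewer residual degrees of freedom. The fits of the difference between populations measure how that difference varied between libraries.

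As background, arteries that feed a lymph node branch into arterioles and capillaries, and blood leaves through high endothelial venules (HEVs), where lymphocytes enter. Arterial endothelium is specified by VEGF and Notch signalling, carries ephrin-B2 and the connexins encoded by Gja4 and Gja5, and lies on an elastic matrix. Gkn3, a secreted gastrokine, marks the endothelium of larger arteries, and Bmx encodes a cytoplasmic tyrosine kinase of arterial endothelium. Atg12 is joined to Atg5 in the conjugation step that lengthens autophagosomes. Sema3g, a semaphorin of arterial endothelium, was not used to choose the members.

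The libraries held 45437986 to 76186801 UMIs in all, and the members of a library held 452359 to 1703069 UMIs, with a median of 3392.5 to 5192.5 per cell. No member barcode occurred in more than 1 library, and 9 to 25 kept barcodes were shared by each pair of libraries. Levels are CPM: the UMIs of a gene in the summed cells, scaled to the same total in every sum. Atg12 lay at 55.9 and 73.5 CPM in vehicle, 46.7 and 51.1 on day 3 and 59.7 and 79.9 on day 7. Its level was higher in the Cre-positive library of each pair and did not pass the genotype test (log2 0.35 ± 0.19 SE, edgeR adjusted p = 1.00). The labels do not give the deleted part, and 3-prime counts need not cover it, so this level does not check the genotype labels.

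The members carried few UMIs of blood cells: the summed markers of B cells came to 7.43 to 100.5 CPM, those of T cells to 2.12 to 10.6 and those of myeloid cells to 2.10 to 53.4, with Cd79a and Cd3e at 0 by the rule. Lymphatic and mural markers were unevenly spread. The 6 lymphatic markers summed to 172 and 105 CPM in vehicle, 62.6 and 64.6 on day 3 and 172 and 82.8 on day 7, with Prox1 at 0 by the rule and Reln at 0 in 5 libraries. In other blood endothelium (no Gkn3, Gja5, Bmx or Prox1 UMI) the sums were 53.9 and 41.3, 49.7 and 41.6, and 43.4 and 46.6 CPM, below the members in every library. At least 2 UMIs of Lyve1, Pdpn, Mmrn1 and Reln were carried by 17 and 5 members in vehicle, 4 and 2 on day 3 and 10 and 2 on day 7, 40 in all. Of these 40 cells, 37 had entered through Bmx alone. Bmx was abundant in cells with Prox1, which held 397 to 1070 Bmx UMIs per library, against 0 to 6 of Gkn3. The 8 mural markers, of smooth muscle and pericytes, summed to 145 and 931 CPM in vehicle, 70.0 and 220.2 on day 3 and 743 and 40.7 on day 7. They were highest in the vehicle Cre-positive and day 7 Cre-negative libraries. In other blood endothelium they summed to 41.4 and 104, 37.7 and 26.5, and 34.9 and 59.3 CPM, below the members except in the day 7 Cre-positive library. At least 2 UMIs of Acta2, Tagln, Myh11, Myl9 and Pdgfrb were carried by 9.09% of vehicle Cre-positive members, beside 2.55% of other blood endothelium there. In the other libraries 1.68% to 3.70% of members carried them, beside 0.705% to 1.92%. Calls of named genes that change when members with any lymphatic UMI are left out (63 cells) are given with both values. The split by Gkn3 below was not repeated without them.

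Members made up 4.41% and 2.87% of blood endothelial cells (the endothelial gate with Prox1 at 0) in vehicle, 4.30% and 6.08% on day 3 and 2.73% and 4.56% on day 7. The lowest share, in the day 7 Cre-negative library, had an exact 95% Clopper-Pearson interval of 2.25% to 3.29%. The highest, in the day 3 Cre-positive library, had one of 5.46% to 6.76%. Both cover counting error only. Neither the genotype test (4.5% against 3.81%, exact two-sided permutation p = 0.500, smallest possible 0.250) nor the day 3 test (5.19% against 3.64% in the other treatments, exact p = 0.333, smallest possible 0.111) passed, and with these libraries neither could go below 0.05. After each cell was thinned to 1000 UMIs the shares were 1.11% and 1.13%, 1.38% and 1.5%, and 0.887% and 1.06%. Both day 3 libraries then lay above the other 4 (exact p = 0.111, the smallest possible). The Cre-positive library was then higher in each pair (exact two-sided permutation p = 0.250, also the smallest possible). Without cells with lymphatic-marker UMIs, and unthinned, the shares were 4.07% and 2.74%, 4.38% and 6.20%, and 2.51% and 4.65%. The day 3 test on those shares gave an exact permutation p = 0.222. The gate counts Gja5, whose own level was higher on day 3, so a share here is the share of cells that pass the gate. B cells here carried at least 2 UMIs of Cd79a and none of Pecam1 or Cdh5. Of 349 to 946 B cells per library, at median depths of 2790.0 to 3414.5 UMIs, 0 reached the gate's 2 UMIs of Gkn3, Gja5 and Bmx. That definition leaves out B cells with endothelial RNA, so the 0 does not measure the background of the gate among endothelial cells.

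**Figure D1:**
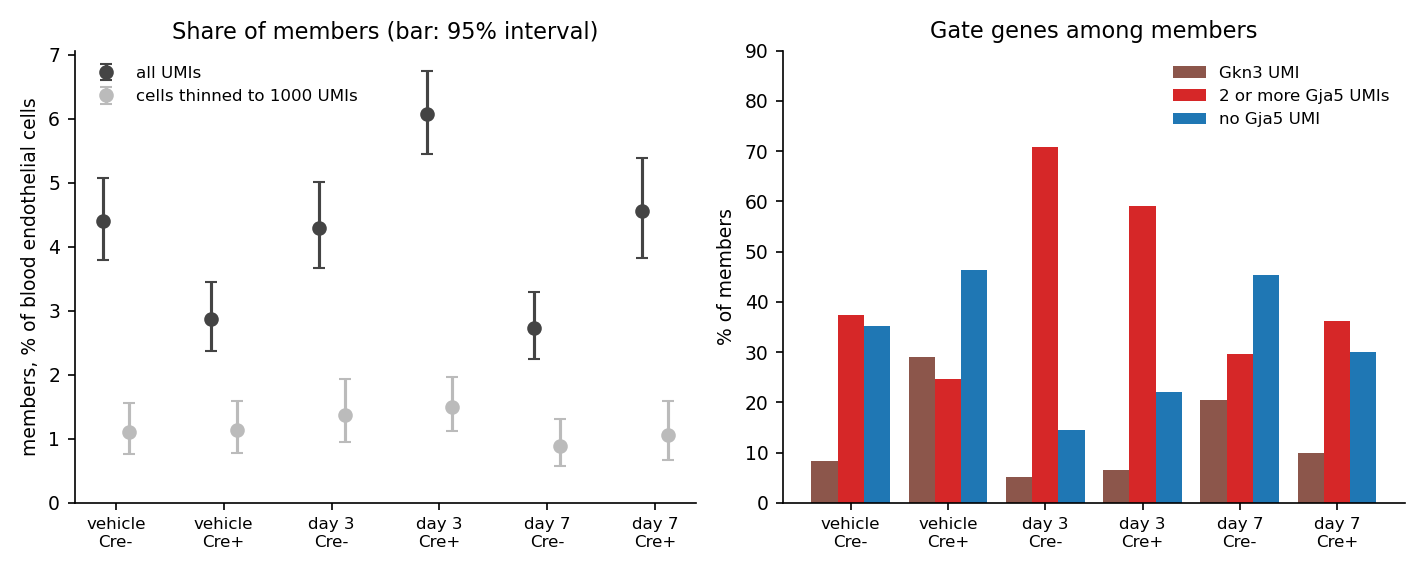
Left, members as a percentage of blood endothelial cells in each of the 6 libraries, with 95% Clopper-Pearson intervals, from all UMIs (dark) and after thinning each cell to 1000 UMIs (grey). Right, the percentage of members with a Gkn3 UMI, with 2 or more Gja5 UMIs and with none; the 2 day 3 libraries have 70.9% and 59.1% of members with 2 or more Gja5 UMIs, above the other 4.

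The members carried a broad arterial programme beyond the gate genes. Sema3g was 524 ± 16.3 CPM (SD, n = 6) in members and 47.6 ± 9.24 in other blood endothelium. Its range over the 6 libraries was 496 to 542 CPM, narrower than that of any gate gene. It was 60.3 CPM in capillary-gated cells (at least 2 UMIs of Gpihbp1 and Kdr, no arterial, HEV, Ackr1 or Selp UMI), 5.95 in lymphatic-gated cells and 3.33 in HEV-gated cells. Of 30 arterial genes outside the gate, 25 were higher in members than in other blood endothelium in all 6 libraries. The median ratio over the 30 was 3.62. For comparison, 1123 (26.8%) of 4186 genes of at least 50 CPM in either population were higher in all 6, and the median ratio over the 4186 was 1.06. These levels describe cells chosen on their counts, so none was tested.

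**Figure D2:**
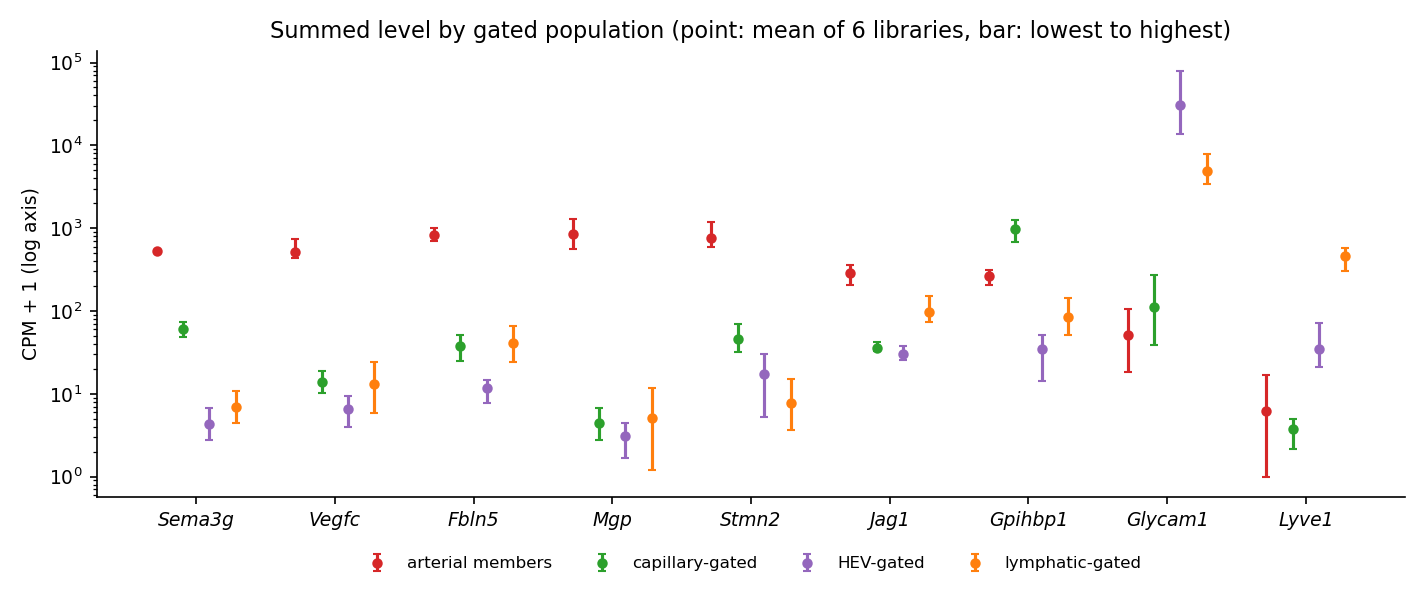
Level (CPM + 1, log axis) of 9 genes in arterial members and in capillary-, HEV- and lymphatic-gated cells, as the mean of 6 libraries with a bar from the lowest to the highest library. Sema3g, Vegfc, Fbln5, Mgp, Stmn2 and Jag1 are highest in members, Gpihbp1, which its gate used, in capillary-gated, Glycam1 in HEV-gated and Lyve1 in lymphatic-gated cells.

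Among Notch genes, the ligand Jag1 was 286 ± 56.6 CPM (SD, n = 6) in members and 36.8 ± 1.56 in other blood endothelium. The ligand Jag2 was 323 ± 24.5 CPM (SD, n = 6) in members and 64.1 ± 6.58 in other blood endothelium. Dll4, the ligand of arterial specification, was 213 ± 46.3 CPM (SD, n = 6) in members and 82.4 ± 12.3 in other blood endothelium. The receptors Notch1 and Notch4 were 2.10 and 3.05 times as high in members, and the target Hey1 was 5.34 times as high. Among guidance genes, Efnb2, which encodes ephrin-B2, was 591 ± 113 CPM (SD, n = 6) in members and 173 ± 27 in other blood endothelium. Efna5, an ephrin-A gene, was 227 ± 54.0 CPM (SD, n = 6) in members and 2.24 ± 1.06 in other blood endothelium. Nrp1, a VEGF and semaphorin co-receptor often listed as arterial, went the other way in all 6 libraries, at 653 ± 37.7 CPM (SD, n = 6) in members and 893 ± 149.9 in other blood endothelium. The transcription factors Sox17 and Mecom were 3.73 and 3.38 times as high in members. Gja4, the connexin gene outside the gate, was 622 ± 202 CPM (SD, n = 6) in members and 88.4 ± 21.9 in other blood endothelium.

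Some genes were low in other blood endothelium. Serpinf1, which encodes the anti-angiogenic factor PEDF, was 88.8 ± 35.0 CPM (SD, n = 6) in members and 0.728 ± 0.349 in other blood endothelium. With counts pooled over the 6 libraries, as for all ratios here, it had the largest ratio, 139, followed by Efna5 (106) and Mgp (89.1). Mgp, an inhibitor of vascular calcification, was 850.3 ± 290.1 CPM (SD, n = 6) in members and 8.40 ± 1.60 in other blood endothelium, with 1279 CPM in the vehicle Cre-positive library and 554 in the day 3 Cre-positive one. Vegfc, a lymphatic growth factor, was 517 ± 113 CPM (SD, n = 6) in members and 15.0 ± 3.42 in other blood endothelium, at 12.3 CPM in lymphatic-gated cells. Fbln5, of elastic fibres, was 836 ± 105 CPM (SD, n = 6) in members and 36.4 ± 7.35 in other blood endothelium. The other 15 of the 20 genes with the largest ratios, at a level of at least 50 CPM, were Gm33206, Igf2, the sodium-calcium exchanger gene Slc8a1, Col5a2, Pcsk5, Slc35f1, Cytl1, Htra1, Tmem100, Fn1, Egfl8, Slc45a4, Nebl, Mannr and Alpl, at 19.3 to 70.2 times the level of other blood endothelium, each higher in all 6 libraries. Edn1, the vasoconstrictor endothelin-1, and Stmn2 were 12.7 and 18.8 times as high in members.

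Markers of the other vessel types were not all low in members. The 6 capillary markers were each lower than in other blood endothelium in all 6 libraries, and their sum was 1447 to 2301 CPM in members beside 4463 to 5229.9. Most of it came from Plvap (380.2 to 1059 CPM), Kdr (374 to 722), Gpihbp1, Rgcc and Cd300lg. Of 6 HEV markers 5 were lower in all 6 libraries (Fut7 and Chst4 are at 0 by the rule), and of 6 venous ones 3. The 6 tip-like markers, which include Dll4 and Cxcr4, summed to 325 and 315 CPM in vehicle, 549 and 642 on day 3 and 327 and 407 on day 7 in members. Other blood endothelium held 253 to 353 CPM, and members were higher in 5 of 6 libraries. Glycam1, an HEV ligand of L-selectin, was 17.4 to 104 CPM in members and 30658 in HEV-gated cells. Car4, a capillary carbonic anhydrase, was 2.10 to 24.3 CPM and the capillary lipase anchor Gpihbp1 207 to 312 CPM, beside 235 and 982 in capillary-gated cells, whose gate fixes a high level of Gpihbp1. Ackr1 and Selp, of venules, were 0 to 17.7 and 0 to 35.7 CPM. Vcam1 and Vwf, listed here as venous markers, were instead higher in members than in other blood endothelium in all 6 libraries, by 4.07 and 2.98 times.

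Summed Sema3g rose with the number of gate UMIs in every library. Its spread over single cells was not examined. Members held 19.1% to 41.5% of the Sema3g UMIs of blood endothelial cells per library, so most of them lay in cells outside the gate. Sema3g in cells just inside, with exactly 2 gate UMIs, was 438 and 416 CPM in vehicle, 318 and 393 on day 3 and 413 and 507 on day 7. In cells just outside, with 1 gate UMI, it was 291 and 262 CPM in vehicle, 239.9 and 225 on day 3 and 320.2 and 239.6 on day 7. With 3 or more gate UMIs it was 589 and 597 CPM in vehicle, 549.7 and 562 on day 3 and 656 and 573 on day 7, so the cells just outside lay between other blood endothelium and the members in every library.

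The members were not uniform. Of the 1010, 446 carried 1 of the gate genes and the others 2 or 3, most often Gja5 with Bmx (457 members). Gkn3 was the single gate gene in 4 members. Gkn3 UMIs were found in 111 of 1010 members: 8.38% and 29.1% in vehicle, 5.06% and 6.46% on day 3 and 20.4% and 10.0% on day 7. These were 15 and 32 cells in vehicle, 8 and 21 on day 3 and 22 and 13 on day 7, so levels per library rest on few cells. Of 23 matrix genes, 7 were higher in members with a Gkn3 UMI in all 6 libraries and 7 lower. Of the list's 8 genes of elastic fibres and their calcification, grouped after the values were seen, 6 were higher in all 6 (Eln, Fbln5, Fbln2, Ltbp4, Mgp and Lox), Fbn1 (264 against 204 CPM) was higher in 3 and Loxl1 had no UMI in these members. For comparison, of 4336 genes 285 were higher and 369 lower in all 6. Pooled over libraries, Mgp was 5337 against 363 CPM with and without a Gkn3 UMI, Eln (elastin) 1585 against 226, Bgn (biglycan) 540.2 against 63.1 and Fbln5 1611 against 767. Lox, which cross-links elastin and collagen, was 80.4 against 9.28 CPM. The arterial genes Sema3g (842 against 493), Vegfc (939.7 against 470.3), Edn1 (691 against 285) and Jag1 (553 against 286) were also higher in all 6, as was the Notch target Hey2 (72.9 against 4.64). Over all 6 libraries the members with a Gkn3 UMI held 29 UMIs of Hey2 and 32 of Lox. Of the 30 arterial genes outside the gate, 11 were higher and 7 lower in all 6.

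Cxcl12 and 6 of 12 basement membrane genes ran the opposite way. Members with a Gkn3 UMI had lower levels in all 6 libraries of the chemokine Cxcl12, at 510.0 against 3129 CPM, of Col4a1 (collagen IV), at 254 against 942, and of Hspg2 (perlecan), at 95.5 against 337. Col4a2, Lama4, Lamc1 and Nid1 were also lower in all 6. The other 6 were not: the laminin gene Lamb2 (317 against 261 CPM) was higher in 4 of 6 libraries and Lama5 (108 against 129) in 3, Lamb1 and Col18a1 in 2 and Col15a1 and Nid2 in 1. Igfbp7 was 696 against 6133 CPM and Sparc 955 against 2709, again lower in all 6. Esm1 was 2.51 against 188 CPM, the former from 1 UMI. Smooth muscle markers did not accompany the matrix genes: Acta2 was 7.54 against 68.4 CPM and Myh11 0 against 21.5. Ackr4, a gene of lymphatic endothelium, was 0 against 61.6 CPM, so lymphatic-marked members lay on the side without Gkn3. Mgp, Bgn, Cytl1, Hey2, Igfbp7, Esm1 and Ackr4 were picked for this split after their values were seen, and no split of members was tested. This split was not repeated on thinned cells or without lymphatic-marked members.

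**Figure D3:**
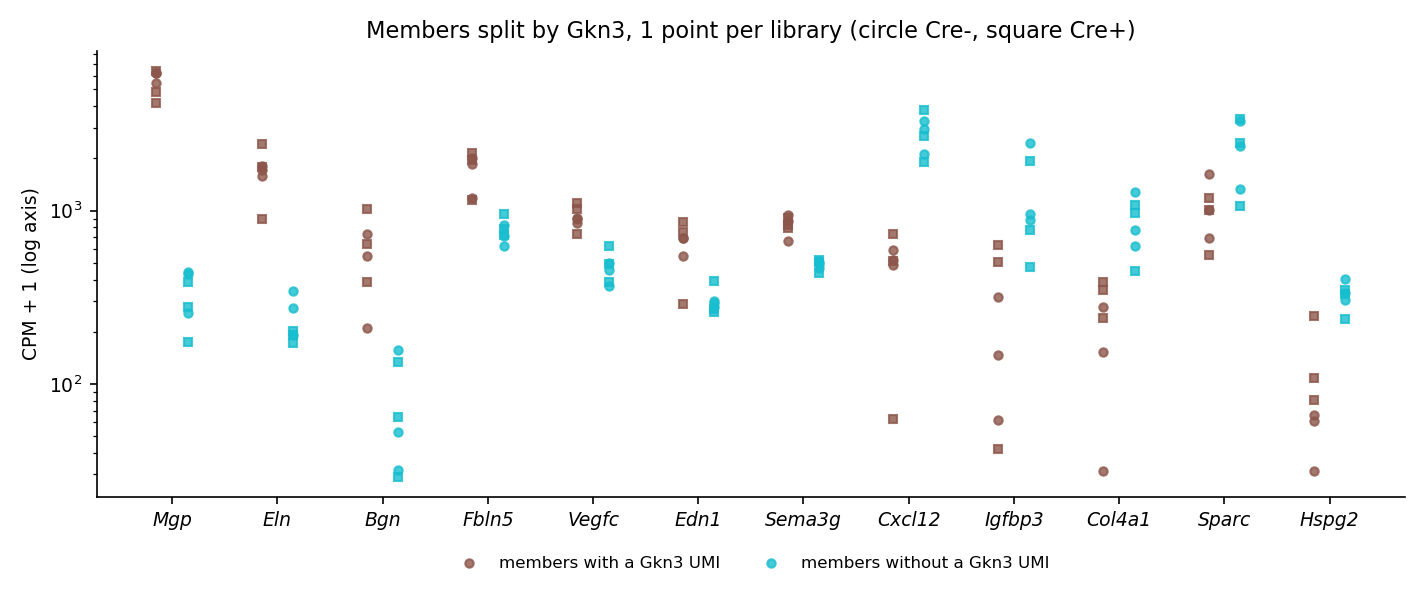
Level (CPM + 1, log axis) of 12 genes in members with a Gkn3 UMI (brown) and without (turquoise), 1 point per library. The matrix and arterial genes on the left are higher with Gkn3 in all 6 libraries, the 5 genes on the right lower in all 6 except Igfbp3, which is higher with Gkn3 in 1 library.

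The members were also split by Gja5. At least 2 Gja5 UMIs were found in 477 members and none in 297. The 477 were set against the 247 of the 297 that had no lymphatic-marker UMI, and of 4178 genes 153 were higher and 152 lower in the 477 in all 6 libraries. With each cell thinned to 1000 UMIs, 113 were higher and 73 lower. Of the 30 arterial genes outside the gate 4 were higher in all 6 libraries and 1 lower, and after thinning 2 and 2. Nrp1, at 711 against 585 CPM in the 477 and in the 247, was higher in all 6, thinned or not. Unc5b, a netrin receptor, was 213 against 119.8 CPM, Notch1 326 against 239 and the chemokine receptor gene Cxcr4 79.9 against 44.6. These 3 were higher in all 6 libraries, and after thinning in 5, 4 and 5. Dll4, at 276 against 146, was higher in 5 libraries and after thinning in 6. Jag1, at 286 against 401 CPM, was lower in all 6, thinned or not. Sox17 (603 against 889.8) was higher in 1 library, and Edn1 (272 against 419) and Tmem100 (165 against 361) in 2, with Tmem100 lower in all 6 after thinning. Sema3g, at 549 against 479, was higher in 4 of 6, thinned or not, and was 419.9 CPM over all 297. The share of members with 2 or more Gja5 UMIs was 70.9% and 59.1% on day 3 and 24.5% to 37.4% in the other 4 libraries, and Gja5 itself was 284 and 246 CPM in vehicle, 538 and 464 on day 3 and 249.8 and 250.0 on day 7.

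On day 3 after oxazolone, arterial cells had more RNA of the tubulin genes Tuba1a and Tubb5, of Igfbp3 and Sat1 and of the long non-coding RNA Morrbid, and less of Txnip, Cldn5 and Sparcl1. The question was which genes changed in the members between vehicle and day 3, in a fit over all 6 libraries with genotype as a term. In edgeR's quasi-likelihood test, 121 of 8464 genes passed (adjusted p under 0.05, 1.43% of those tested), 60 higher (0.709%) and 61 lower (0.721%). The 10 genes of smallest p in each direction at a mean of at least 20 CPM are described first, then those from gene lists.

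Morrbid, a long non-coding RNA known from myeloid cell survival, was 33.1 and 25.2 CPM in vehicle, 246 and 177 on day 3 and 37.6 and 46.5 on day 7. The 2 day 3 libraries lay above the other 4 (log2 2.85 ± 0.26 SE, edgeR adjusted p = 0.00146). Nts, the neurotensin precursor, was 68.5 and 27.3 CPM in vehicle, 949.7 and 175 on day 3 and 81.8 and 45.1 on day 7. Its rise (log2 3.41 ± 0.32 SE, edgeR adjusted p = 0.00146) was uneven between the 2 day 3 libraries. Igfbp3, which encodes a secreted binding protein of insulin-like growth factors (chromosome 11, 7206086 to 7213923, minus strand, GRCm38), was 896 and 477 CPM in vehicle, 2377 and 1868 on day 3 and 800.2 and 715 on day 7. It rose without overlap between day 3 and the other libraries (log2 1.68 ± 0.23 SE, edgeR adjusted p = 0.00699). The rise was seen in members with 2 or more Gja5 UMIs, at 1367 and 398 CPM in vehicle, 2864 and 2532 on day 3 and 1166 and 703 on day 7 (log2 1.77, adjusted p = 0.00253, range over all alternatives 1.67e-12 to 0.223). Members with no Gja5 or lymphatic-marker UMI had 839.9 and 528 CPM in vehicle, 425 and 528 on day 3 and 406 and 447 on day 7, with both day 3 values inside the range of the other 4 libraries. The difference in response between these 2 subsets was not tested, and members with 2 or more Gja5 UMIs were a larger share on day 3. Both subsets were cut on Gja5, a gate gene itself higher on day 3, so the subset values and p are a description. Sat1, which acetylates polyamines (chromosome X, 155213132 to 155216449, minus strand), was 555 and 366 CPM in vehicle, 1489 and 2084 on day 3 and 568 and 698 on day 7. It rose likewise (log2 1.95 ± 0.26 SE, edgeR adjusted p = 0.00702). Plaur, the urokinase receptor, was low at 11.4 and 6.30 CPM in vehicle, 92.3 and 75.7 on day 3 and 11.1 and 20.3 on day 7 (log2 3.15 ± 0.36 SE, edgeR adjusted p = 0.00278).

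Other risers were Tuba1a, Tubb5, Smc2, Vwa1 and Anxa1. The alpha-tubulin gene Tuba1a was 164 and 176 CPM in vehicle, 513 and 541 on day 3 and 179 and 189 on day 7 (log2 1.65 ± 0.18 SE, edgeR adjusted p = 0.00278), close to the same level in both day 3 libraries. The beta-tubulin gene Tubb5 was 209 and 202 CPM in vehicle, 539 and 506 on day 3 and 221 and 202 on day 7 (log2 1.37 ± 0.18 SE, edgeR adjusted p = 0.00625). The condensin subunit gene Smc2 was 18.3 and 18.9 CPM in vehicle, 128 and 80.4 on day 3 and 30.9 and 27.6 on day 7 (log2 2.53 ± 0.28 SE, edgeR adjusted p = 0.00278). Without the members with 2 or more UMIs of cell cycle genes, Smc2 did not pass (log2 1.20, adjusted p = 0.122, range over all alternatives 2.88e-13 to 0.296). Vwa1, of the extracellular matrix, and Anxa1, an annexin that limits inflammation, rose by log2 1.89 ± 0.24 and 1.41 ± 0.20 SE. Tubulins have closely similar copies whose reads the counting could split, so which copy rose is uncertain.

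**Figure D4:**
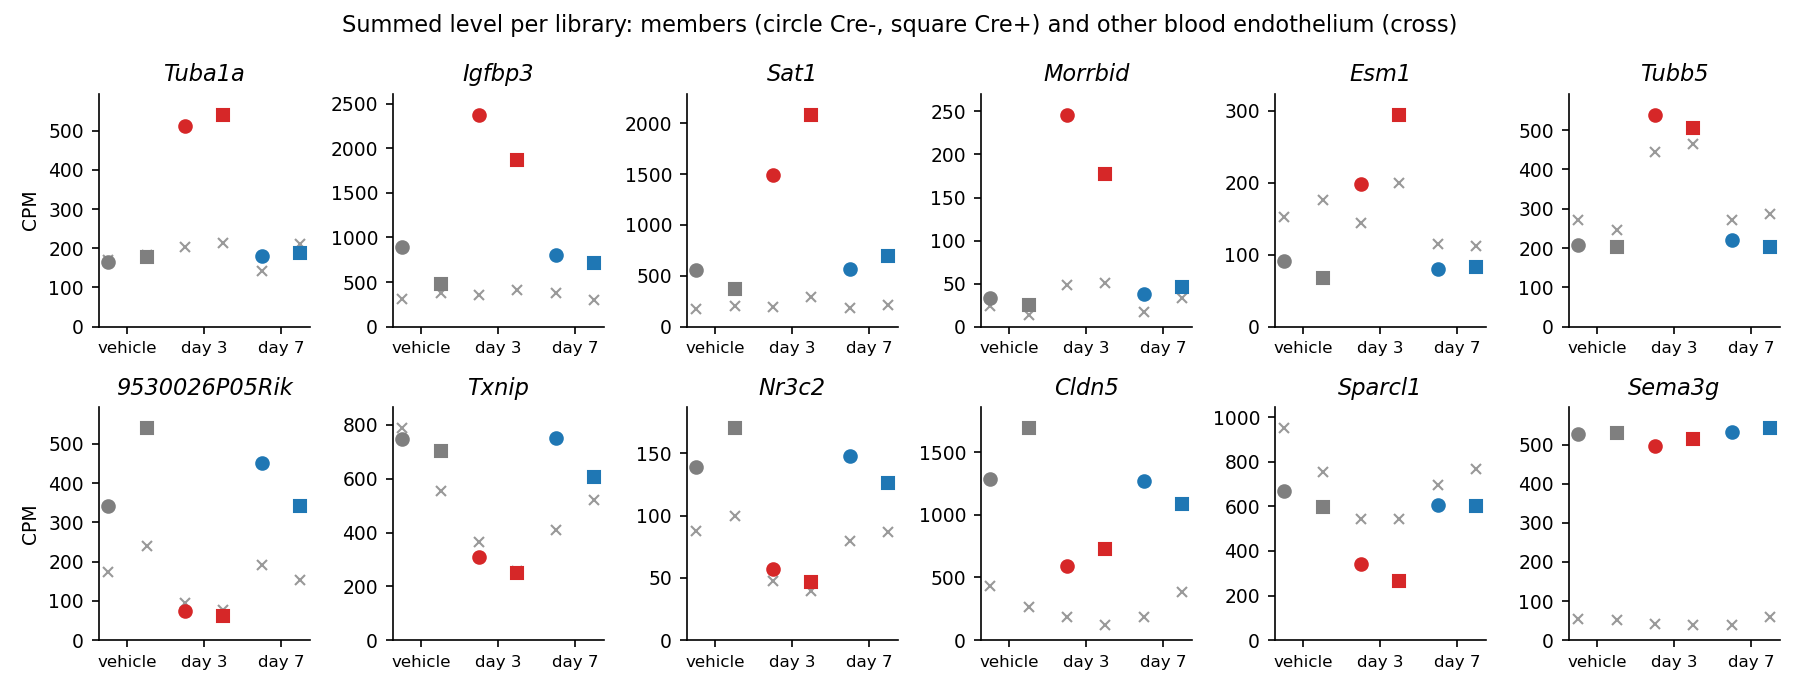
Level (CPM) of 12 genes in the members of each library (grey vehicle, red day 3, blue day 7, circles Cre-negative, squares Cre-positive) and in other blood endothelium (crosses). In the members the 2 day 3 libraries are above the other 4 in the first 6 genes and below them in the next 5, while Sema3g stays between 496 and 542 CPM.

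Among genes that fell, 9530026P05Rik had the smallest p. It is annotated as an antisense RNA (chromosome 6, 92940329 to 93272979, plus strand) and was 343 and 539.9 CPM in vehicle, 75.3 and 61.1 on day 3 and 451 and 343 on day 7 (log2 -2.67 ± 0.27 SE, edgeR adjusted p = 0.00155). The handling of strand is not given in the sources used here, so reads of an overlapping gene cannot be told apart from its own. Txnip, a thioredoxin-binding protein gene that responds to glucose, was 749 and 704 CPM in vehicle, 308 and 248 on day 3 and 752 and 608 on day 7 (log2 -1.37 ± 0.18 SE, edgeR adjusted p = 0.00699). Nr3c2, the mineralocorticoid receptor, was 139 and 170.2 CPM in vehicle, 57.3 and 47.0 on day 3 and 148 and 126 on day 7 (log2 -1.54 ± 0.22 SE, edgeR adjusted p = 0.00923). Klhl24, an adaptor of a ubiquitin ligase, fell by 1.33 ± 0.20 SE on the log2 scale and the unnamed gene Gm609 by 2.71 ± 0.40. For each of these 5 genes both day 3 libraries lay below the other 4.

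The other 5 fallers were high where lymphatic-marked members were many. Ackr4, an atypical chemokine receptor known from lymphatic endothelium, was 134 and 77.7 CPM in vehicle, 24.4 and 7.05 on day 3 and 186 and 27.6 on day 7. Tnc (tenascin-C), F8 (coagulation factor VIII), C1qtnf7 and Trp53i11 fell by 2.44, 2.64, 2.37 and 3.21 on the log2 scale. Lymphatic markers moved with them, at 172 and 105 CPM in vehicle and 62.6 and 64.6 on day 3. Without the 63 members with a lymphatic UMI, Ackr4 and C1qtnf7 had too few counts to be tested. Tnc, F8 and Trp53i11 no longer passed (adjusted p = 0.772, 0.229 and 0.0844, ranges over all alternatives 6.08e-14 to 0.772, 8.41e-10 to 0.319 and 3.46e-08 to 0.369). The other 15 of the 20 genes passed without these members. In that fit 85 genes were called, 73 of them among the 121, and 62.4% of the 85 rather than 49.6% were higher.

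Gene lists were read against a median log2 change of 0.00 over all genes tested and the 1.43% of genes called. In the arterial identity list outside the gate, 1 of 29 tested genes rose and 0 fell, median log2 0.18; the riser was Igfbp3. Of Notch genes 1 of 19 passed, the receptor gene Notch2, which fell at low level (22.8 and 18.9 CPM in vehicle, 3.18 and 4.11 on day 3 and 11.1 and 13.1 on day 7) and had too few counts to be tested without the lymphatic-marked members. The ligand Dll4 (log2 0.61 ± 0.18 SE, edgeR adjusted p = 0.117) and the target Hey1 (log2 0.42 ± 0.18 SE, edgeR adjusted p = 0.271) did not pass. Of vasoregulatory genes, Calcrl, the adrenomedullin receptor, rose (239.8 and 158 CPM in vehicle, 400.1 and 335 on day 3 and 254 and 206 on day 7; log2 0.92 ± 0.19 SE, edgeR adjusted p = 0.0370). Nos3, Edn1 and Ramp2 did not pass. Of VEGF and sprouting genes, Esm1, a secreted proteoglycan of tip cells, rose (91.3 and 67.2 CPM in vehicle, 198 and 295 on day 3 and 79.6 and 82.8 on day 7; log2 1.60 ± 0.25 SE, edgeR adjusted p = 0.0103). The VEGF receptor gene Kdr did not pass (log2 0.73 ± 0.18 SE, edgeR adjusted p = 0.0805).

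Matrix genes were called in both directions and junction genes as lower. In the matrix list 1 of 22 tested genes rose and 2 fell, median log2 0.34. Nid2, a basement membrane nidogen, rose (30.8 and 27.3 CPM in vehicle, 81.7 and 67.5 on day 3 and 24.3 and 34.9 on day 7), and Fbn1 (fibrillin-1) and Sparcl1 fell. Sparcl1 was 668 and 599 CPM in vehicle, 339.6 and 265 on day 3 and 608 and 600.3 on day 7 (log2 -1.05 ± 0.18 SE, edgeR adjusted p = 0.0193). Col4a1 was 739.9 and 399 CPM in vehicle, 1232 and 943 on day 3 and 555 and 1030.5 on day 7 and did not pass (log2 0.95 ± 0.32 SE, edgeR adjusted p = 0.183). In the junction list 0 of 13 tested genes rose and 2 fell, median log2 -0.30. Cldn5, the main endothelial claudin of tight junctions, was 1284 and 1691 CPM in vehicle, 591 and 723 on day 3 and 1273 and 1087 on day 7 and fell (log2 -1.15 ± 0.22 SE, edgeR adjusted p = 0.0279). Jam3, an adhesion molecule, fell by 1.26 ± 0.24 SE on the log2 scale, but not without the lymphatic-marked members (adjusted p = 0.0943, range over all alternatives 0.000482 to 0.833).

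Of the endoplasmic reticulum stress list, 2 of 17 tested genes rose and 0 fell, median log2 0.30. The chaperone gene Hspa5 was 341 and 277 CPM in vehicle, 768 and 464 on day 3 and 409 and 239.8 on day 7 (log2 0.99 ± 0.19 SE, edgeR adjusted p = 0.0316). Manf, a secreted factor of that response, was 116 and 139 CPM in vehicle, 305 and 215 on day 3 and 86.2 and 116 on day 7 (log2 1.05 ± 0.23 SE, edgeR adjusted p = 0.0483). Manf did not pass without lymphatic-marked members (adjusted p = 0.0779, range over all alternatives 0.000140 to 0.607). Ddit3, which encodes the stress factor CHOP, was 19.9 to 23.1 CPM in the 6 libraries. Of haemostasis genes, Anxa2, a co-receptor of plasminogen, rose (399.6 and 258 CPM in vehicle, 708 and 709 on day 3 and 332 and 301 on day 7; log2 1.14 ± 0.21 SE, edgeR adjusted p = 0.0227), and F8 fell as above.

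Within the members, no gene of the adhesion and inflammation, interferon or MHC lists passed on day 3. None of 16 adhesion and inflammation genes passed: Vcam1 was 250.0 and 227 CPM in vehicle, 237 and 293 on day 3 and 228 and 292 on day 7. Icam1 was 104 and 137 CPM in vehicle, 90.2 and 83.4 on day 3 and 95.1 and 144 on day 7. None of 29 interferon genes passed in edgeR, while 2 of 29 lay above 0 and the median log2 change was -0.53. Ifit1 was 131 and 119.7 CPM in vehicle, 45.6 and 79.9 on day 3 and 88.4 and 134 on day 7. None of 14 MHC genes, 27 autophagy genes, 11 p53 targets or 16 lipid handling genes passed, the last with a median of -0.55. The fatty acid transporter gene Cd36 was 1151 and 1113 CPM in vehicle, 739.6 and 518 on day 3 and 966 and 679 on day 7 (log2 -0.85 ± 0.20 SE, edgeR adjusted p = 0.0632). Of 18 immediate early and heat shock genes, which rise during tissue dissociation, Ier3 fell, but not without the lymphatic-marked members (adjusted p = 0.0684, range over all alternatives 0.00221 to 0.578), and the median was -0.78. Fos was 428 and 1798 CPM in vehicle, 238 and 389 on day 3 and 1021 and 544 on day 7, highest in the vehicle Cre-positive library. The part of such genes in the day 3 result was not tested.

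Members with UMIs of cell division genes were found mainly on day 3. At least 2 UMIs of Mki67, Top2a, Cdk1, Ccnb1, Ccnb2 and Birc5, genes of dividing cells, were carried by 3 of 179 and 0 of 110 members in vehicle. On day 3 they were carried by 17 of 158 (10.8%, exact 95% interval 6.39 to 16.7%) and 24 of 325 (7.38%, 4.79 to 10.8%). On day 7 they were carried by 0 of 108 and 0 of 130. For the 3 counts of 0, in the order given, the exact 95% intervals reached up to 3.30%, 3.36% and 2.80%. Other blood endothelium had 4.03% and 1.86%, 11.8% and 16.4%, and 2.13% and 5.27%. The unthinned arterial share was below it in all 6 libraries. With cells thinned to 1000 UMIs and at least 1 cycle UMI required, the day 3 shares were 10.8% and 7.08% in members beside 8.87% and 16.1%, so the order turned in the day 3 Cre-negative library, and it held in the other 5. An upper bound on free RNA, from immunoglobulin UMIs, was 0.681% to 1.17% of the members' UMIs per library. At that bound it would give 3.83 and 12.7 cycle UMIs over all day 3 members, which held 498 and 431. The cells with at least 2 cycle UMIs were deeper than the rest, with medians of 8978 and 6441.5 UMIs beside 5192.5 and 4739 over all day 3 members. Doublets were not removed. Without the cells of highest doublet score, 15 of 153 and 20 of 310 day 3 members carried at least 2 cycle UMIs. In the cell cycle list 3 of 7 tested genes rose and 0 fell, median log2 1.33. Tubb5, Stmn1, which destabilises microtubules, and Hmgb2, a chromatin protein gene, rose. Without the members with 2 or more cycle UMIs, Tubb5 passed (adjusted p = 0.0236, range over all alternatives 4.17e-08 to 0.296). Smc2, Stmn1 and Hmgb2 did not, and Stmn1 was lower on day 3 (log2 -0.94).

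Each treatment had 2 libraries, and the day 3 count depended on both of its own: without the day 3 Cre-negative library 0 genes passed (699 at an unadjusted p under 0.05), and without the day 3 Cre-positive library 1. It was 201 without the vehicle Cre-positive, 532 without the vehicle Cre-negative, and 628 and 615 without the day 7 Cre-negative and Cre-positive libraries. DESeq2 called 43 genes, and members with a Y-linked UMI, a subset of 1 sex, gave 7. The sex mix differed between treatments as well. Members with an Xist UMI were 36.3% and 0% in vehicle, 63.9% and 38.8% on day 3 and 56.5% and 34.6% on day 7. The part of sex in the day 3 result was not tested beyond that subset.

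The next question was whether arterial cells responded to day 3 differently from the other blood endothelium of the same libraries (cells with no Gkn3, Gja5, Bmx or Prox1 UMI). The difference itself was tested in 1 fit over 12 sums, with each library as a block. Its expression filter also counted the sums of other blood endothelium, so genes too low to be tested within the members could enter. It passed for 156 of 13797 genes (1.13%), with a more positive change in arterial cells for 107 (0.776%) and a more negative one for 49 (0.355%). Genes named only for this difference were chosen after their values were seen. Other blood endothelium mixed vessel types, and its make-up varied. HEV-gated cells were 218 and 274 of its 3695 and 3607 cells in vehicle. On day 3 they were 332 and 269 of 3404 and 4791, and on day 7 514 and 199 of 3707 and 2602. Its cells with at least 2 cell cycle UMIs were 4.03% and 1.86% in vehicle and 11.8% and 16.4% on day 3. The part of this make-up in the difference was not tested.

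Several day 3 risers changed less in other blood endothelium. That population is called outside arteries below, although arterial cells with no gate UMI would fall in it. Sat1 in other blood endothelium was 172 and 202, 196 and 293, and 179 and 208 CPM on vehicle, day 3 and day 7, and the difference in response was log2 1.62 ± 0.20 SE, edgeR adjusted p = 2.87e-06. Igfbp3 there was 309 and 376, 359.6 and 415, and 374 and 294 CPM (log2 1.52 ± 0.21 SE, edgeR adjusted p = 1.33e-05). Tuba1a there was 170.3 and 183, 204 and 213, and 143 and 209.8 CPM (log2 1.42 ± 0.20 SE, edgeR adjusted p = 1.33e-05). Esm1 there was 153 and 176, 144 and 200.1, and 115 and 112 CPM (log2 1.55 ± 0.23 SE, edgeR adjusted p = 3.54e-05). Calcrl differed by log2 1.02 ± 0.21 SE, edgeR adjusted p = 0.00300. Morrbid, which was higher on day 3 in both populations, differed by log2 1.57 ± 0.29 SE, edgeR adjusted p = 0.000934. Ctla2a, a cysteine protease inhibitor gene with a close copy, was 403 and 189 CPM in vehicle, 1086 and 958 on day 3 and 420.0 and 539 on day 7 in members. Outside, it was 1702 and 1189.8, 1798 and 1753, and 2233 and 1535 CPM (log2 1.55 ± 0.21 SE, edgeR adjusted p = 1.33e-05). For Tubb5, Txnip, Nr3c2, Klhl24, Cldn5, Hspa5, Anxa2 and Sparcl1 the difference did not pass.

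**Figure D5:**
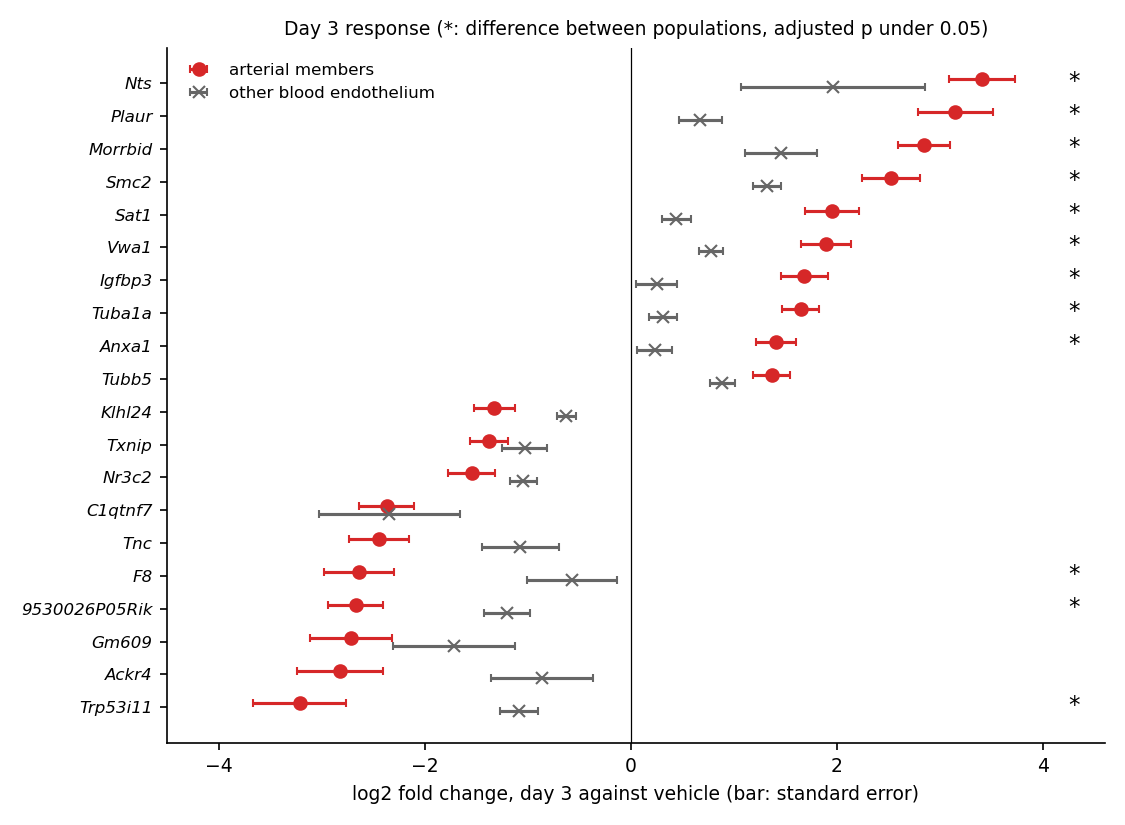
Log2 fold change, day 3 against vehicle, with its standard error, for the 20 genes with the smallest p in arterial members (red) and in other blood endothelium (grey crosses); a star marks genes whose difference between the 2 populations has an adjusted p under 0.05. The difference is starred for 9 of the 10 risers, and for 9530026P05Rik, F8 and Trp53i11 among the 10 fallers, the last 2 not without lymphatic-marked members. The genes were picked by their change in the members, so the number of stars is a description. Over all genes the difference passed for 1.13%.

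Arterial and basement membrane genes were among those that differed. In the arterial identity list 10 of 30 genes had a more positive day 3 change in arterial cells and 0 a more negative one, beside the 0.776% of all genes that did so. They were Efnb2, Dll4, Notch4, Unc5b, Cxcl12, Cxcr4, Depp1, Igfbp3, Gja1 and Cdh13 (median of the list log2 0.30, of all genes 0.05). Efnb2 was 540.1 and 506 CPM in vehicle, 776 and 688 on day 3 and 522 and 516 on day 7 in members. Outside, it was 185 and 221, 146 and 156, and 162 and 168 CPM (log2 0.94 ± 0.18 SE, edgeR adjusted p = 0.00203). Cdh13, which encodes T-cadherin, was 739.9 and 603 CPM in vehicle, 1417 and 1085 on day 3 and 794 and 956 on day 7 in members. Outside, it was 689 and 588, 574 and 467, and 466 and 672 CPM (log2 1.22 ± 0.17 SE, edgeR adjusted p = 1.33e-05). Of 22 matrix genes 6 did so, Col4a1, Col4a2, Lama5, Nid2, Hspg2 and Sparc. Apart from Igfbp3 and Nid2, none of these genes passed the day 3 test within the members alone. Outside arteries the day 3 change was log2 -0.35 for Efnb2, -0.29 for Dll4 and -0.71 for Cxcr4, and none of these passed. Fitted alone, other blood endothelium had 0 of 14552 genes that passed on day 3 in edgeR, with 3596 at an unadjusted p under 0.05. Within the members 1343 of 8464 were under 0.05 unadjusted. Against capillary-gated cells, 4 of the 10 arterial genes passed, Igfbp3, Gja1, Depp1 and Cdh13, and the other 6 did not (adjusted p = 0.0638 to 0.252). Of the 6 matrix genes, Col4a1, Col4a2 and Sparc passed against them. Without the lymphatic-marked members Lama5 did not pass (adjusted p = 0.0592). The share of members with a Gkn3 UMI, in which Cxcl12, Col4a1, Depp1 and Unc5b were low, was lowest in the 2 day 3 libraries. The share with 2 or more Gja5 UMIs was highest there, at 70.9% and 59.1% beside 24.5% to 37.4% in the other 4. Each of the 10 arterial genes had a higher pooled level in these members than in those with no Gja5 or lymphatic-marker UMI. The ratio was 1.08 for Depp1 to 3.83 for Igfbp3. They were higher in 3 to 6 of the 6 libraries, and after thinning in 1 (Depp1) to 6 (Dll4). The day 3 libraries held 112 and 192 of the 477 cells on the high side, but 18 and 67 of the other 247. The pooled ratios therefore mix the Gja5 split with treatment. In vehicle, Igfbp3 was 1367 and 398 CPM on the high side and 839.9 and 528 on the other. The part of either shift in share in the day 3 result was not tested.

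Other lists were read against the same shares, 0.776% of genes more positive and 0.355% more negative. Of 24 adhesion and inflammation genes, Sele (E-selectin) and Tnfaip3, an inhibitor of NF-kB signalling, had a more positive change in arterial cells and none a more negative one (median log2 0.35). Sele in members was 3.43 and 0 CPM in vehicle, 66.9 and 0 on day 3 and 2.21 and 0 on day 7, high in the day 3 Cre-negative library alone, and the gene did not pass against capillary-gated cells (adjusted p = 0.427). Tnfaip3 was log2 1.47 ± 0.32 SE, edgeR adjusted p = 0.00671. Of 16 cell cycle genes, Mki67 and Top2a (log2 3.09 ± 0.43 SE, edgeR adjusted p = 2.19e-05) were more positive, 15 lay above 0 and the median was 0.85, beside the shares of cells with cycle UMIs given above. Within the members alone, 7 of the 16 had counts enough to be tested. The rest entered this fit through the sums of other blood endothelium, so their differences rest on low member counts. Top2a in members was 6.85 and 4.20 CPM in vehicle, 218 and 105 on day 3 and 0 and 0 on day 7. Of 16 VEGF and sprouting genes Kdr, Esm1 and Cd34 were more positive, and of 19 vasoregulatory genes Ece1, Calcrl and Npr3. Of 29 interferon genes, 2 lay above 0 (median -0.27) and Ifitm3 passed as more negative.

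Genes with a more negative change in arterial cells included 9530026P05Rik (log2 -1.38 ± 0.20 SE, edgeR adjusted p = 3.54e-05) and Nr2f2, the transcription factor of venous identity, which was 53.7 and 94.5 CPM in vehicle, 21.2 and 14.1 on day 3 and 111 and 13.1 on day 7 in members. Outside, Nr2f2 was 53.4 and 60.2, 72.2 and 70.4, and 74.9 and 66.8 CPM (log2 -2.29 ± 0.38 SE, edgeR adjusted p = 0.000230). Mural markers in members, given above, were likewise highest in the vehicle Cre-positive and day 7 Cre-negative libraries, and their part in the Nr2f2 result was not tested. Slco2a1, a prostaglandin transporter gene, was 42.2 and 71.4 CPM in vehicle, 44.6 and 29.4 on day 3 and 73.0 and 39.2 on day 7 in members. Outside, Slco2a1 was 97.6 and 87.6, 198 and 210.2, and 83.2 and 111 CPM (log2 -1.66 ± 0.32 SE, edgeR adjusted p = 0.00132). Clca3a1, Pcdh7, F8, Trp53i11 and Csmd1 also differed, but not when the 63 members with a lymphatic UMI were left out, whereas 9530026P05Rik, Nr2f2 and Slco2a1 then passed. Against capillary-gated cells in place of all other blood endothelium 102 genes passed, 90 of them shared. Leaving out 1 library gave 40 and 75 genes without the day 3 Cre-negative and Cre-positive libraries, 311 and 70 without the vehicle ones and 305 and 304 without the day 7 ones. The excess of more positive changes, 68.6% of the 156, was not kept throughout: they were 42.5% of the 40, 53.3% of the 75 and 55.7% of the 70.

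On day 7, arterial cells differed from vehicle at no gene that passed. Against vehicle, 0 of 8464 genes passed in edgeR (0%), with 229 at an unadjusted p under 0.05 and 0 in DESeq2. Leaving out 1 library gave 38 and 7 without the vehicle libraries, 43 and 7 without the day 7 ones and 0 without either day 3 one. Among lists, no gene passed: the median log2 change was -0.33 for lipid handling, -0.15 for interferon and -0.04 for arterial identity genes. Sema3g was 527 and 529 CPM in vehicle, 496 and 515 on day 3 and 533 and 542 on day 7, a narrow spread within which the treatments did not overlap (log2 0.02 ± 0.18 SE, edgeR adjusted p = 1.00 for day 7 against vehicle). A difference in day 7 response from other blood endothelium passed for 4 of 13797 genes (0.029%). Syt1 and Cxcl10 were the more positive in arterial cells (0.0145%), and Glycam1 and Gadd45g the more negative (0.0145%). Glycam1 is an HEV marker. The 6 HEV markers summed in other blood endothelium to 5982 and 6062 CPM in vehicle and 29582 and 4852 on day 7. In members they summed to 833 and 391 CPM in vehicle and 990 and 1246 on day 7. The part of HEV cells among other blood endothelium in the Glycam1 result was not tested. Cxcl10, an interferon-induced chemokine gene, was 6.85 and 2.10 CPM in vehicle, 5.31 and 8.81 on day 3 and 6.63 and 87.2 on day 7 in members, so only the day 7 Cre-positive library was high. Syt1, a calcium sensor of vesicle release, was 0 and 0 CPM in vehicle, 5.31 and 2.94 on day 3 and 30.9 and 21.8 on day 7 in members.

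Compared directly with day 3, day 7 differed at 104 of 8464 genes (1.23%), 45 higher (0.532%) and 59 lower (0.697%), and DESeq2 called 37. Day 3 libraries serve in both this comparison and the one with vehicle, so the 2 are not independent. Morrbid (log2 -2.29 ± 0.25 SE), Nts (log2 -2.84 ± 0.31 SE), Tuba1a (log2 -1.54 ± 0.18 SE), Tubb5 (log2 -1.33 ± 0.18 SE), Igfbp3 (log2 -1.49 ± 0.22 SE), Esm1 (log2 -1.63 ± 0.25 SE), Hspa5 and Manf were lower on day 7. Higher were 9530026P05Rik (log2 2.53 ± 0.27 SE), Txnip (log2 1.27 ± 0.18 SE) and Klhl24. A gene named by this comparison but not by the one with vehicle was Litaf (91.3 and 98.7 CPM in vehicle, 241 and 211 on day 3 and 64.1 and 72.7 on day 7), which encodes an endosomal membrane protein. Another was S100a4 (159.8 and 195 CPM in vehicle, 265 and 419 on day 3 and 77.4 and 138 on day 7), a calcium-binding protein gene, and both were lower on day 7. Among genes higher on day 7, Pltp, a phospholipid transfer protein gene, was 127 and 155 CPM in vehicle, 44.6 and 65.8 on day 3 and 137 and 166 on day 7 (log2 1.42 ± 0.21 SE). Scarb1, the HDL receptor gene, was 136 and 73.5 CPM in vehicle, 78.5 and 66.4 on day 3 and 206 and 174 on day 7 (log2 1.36 ± 0.22 SE). Mt1, a metallothionein gene, was 43.4 and 130.3 CPM in vehicle, 17 and 23.5 on day 3 and 102 and 98.8 on day 7 (log2 2.29 ± 0.37 SE). Cd24a and Tgfbr3 were higher and Ms4a6d, Sdcbp2 and H2afz lower on day 7. The count was 0 without the day 3 Cre-negative library, 1 without the day 3 Cre-positive one and 409 to 544 without the vehicle Cre-negative, the vehicle Cre-positive or the day 7 Cre-positive library.

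The genotype comparison set the members of the 3 Cre-positive libraries against those of the 3 Cre-negative ones, with treatment as a term. The labels give the former an endothelial Cre that deletes floxed Atg12, a loss that the Atg12 level above does not show. The sex mix of the members differed between the libraries of a pair. Y-linked genes (Ddx3y, Uty, Eif2s3y and Kdm5d) summed to 175 and 273 CPM in vehicle, 78.5 and 162 on day 3 and 84.0 and 142 on day 7, higher in the Cre-positive library of each pair. Xist was 276 and 0 CPM in vehicle, 609 and 261 on day 3 and 435 and 233 on day 7, lower in it. The share of members with a Y-linked UMI was 35.2% and 60.9%, 23.4% and 41.8%, and 23.1% and 21.5%, so on day 7 it was not higher in the Cre-positive library. Sex and genotype cannot be told apart in these sums; among members with a Y-linked UMI alone 0 genes passed in edgeR (205 at an unadjusted p under 0.05). No gene passed: 0 of 8464 in edgeR (0%), with 326 at an unadjusted p under 0.05, and 2 in DESeq2. Leaving out 1 library gave 57 and 61 genes without the vehicle libraries, 41 without either day 7 one and 0 without either day 3 one. Of 27 autophagy genes 15 lay above 0, with a median log2 difference of 0.10 beside 0.00 over all genes. Sqstm1, whose protein is degraded by autophagy, was 168 and 147 CPM in vehicle, 105 and 113 on day 3 and 148 and 159.9 on day 7 (log2 0.06 ± 0.16 SE, edgeR adjusted p = 1.00). Map1lc3b, which encodes an LC3 protein of autophagosome membranes, was 268 and 242 CPM in vehicle, 204 and 258 on day 3 and 241 and 239.8 on day 7. The lysosomal gene Lamp1 was 371 and 336 CPM in vehicle, 462 and 429 on day 3 and 321 and 326 on day 7. For both, the genotypes overlapped.

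Some lists lay to 1 side without a gene that passed. All 18 immediate early and heat shock genes lay above 0 in Cre-positive cells (median log2 0.47), and Fos and Jun were highest in the vehicle Cre-positive library, where Fos was 1798 CPM and Jun 1254. Of 11 p53 targets 10 lay above 0 (median 0.57): Cdkn1a was 67.4 and 134 CPM in vehicle, 115 and 117 on day 3 and 104 and 128 on day 7. Phlda3 was 49.1 and 73.5 CPM in vehicle, 78.5 and 131 on day 3 and 77.4 and 85.8 on day 7. Both were higher in the Cre-positive library of each pair. Of 29 interferon genes 25 lay above 0 (median 0.27), and all 7 cell cycle genes lay below 0 (median -0.41). Sema3g, Jag2 and Cxcl12 had log2 differences of 0.08, 0.13 and -0.01.

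The genotype difference itself differed between arterial and other blood endothelium for 15 of 13797 genes (0.109%), 4 more positive (0.029%) and 11 more negative (0.0797%) in arterial cells. Phlda3 outside arteries was 13.1 and 37.1, 20.5 and 60.1, and 10.5 and 51.0 CPM, a larger difference than in members (log2 -1.17 ± 0.23 SE, edgeR adjusted p = 0.0160). Nts was 61.0 and 69.2 CPM on day 3 outside arteries and 949.7 and 175 in members (log2 -2.42 ± 0.29 SE, edgeR adjusted p = 1.07e-06). Sele, high in the day 3 Cre-negative library alone, was called as more negative. That library also held the highest member levels of Top2a, Mki67 and Hist1h1b, called in the same direction. Mt1 and Ppp1r15a differed the other way (log2 1.44 ± 0.31 SE, edgeR adjusted p = 0.0430 and log2 0.96 ± 0.21 SE, edgeR adjusted p = 0.0474). Leaving out 1 library gave 78 and 76 genes without the vehicle libraries, 56 and 50 without the day 7 ones and 12 and 18 without the day 3 ones. Leaving out the lymphatic-marked members gave 29. The balance of direction was not stable: 26.7% of the 15 were more positive in arterial cells, and 55.2% of the 29, 58.3% of the 12 and 55.6% of the 18.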

How the data were processed

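The authors deposited matrices of UMI counts per gene and barcode for each library, made from 10x Genomics 3-prime libraries. The submitters' processing notes name Cell Ranger 7.0.1 and mm10, whereas the file headers give a format of Cell Ranger 4; the handling of strand is not given in the sources used here. Members, gates and gene lists were chosen with earlier results of these data known. Deposited counts were summed over the members of each library and tested with edgeR 4.0.16 (R 4.3.3): TMM scaling, filterByExpr by genotype, glmQLFit and glmQLFTest, genotype and treatment as additive terms, Benjamini-Hochberg adjustment over all genes tested. The difference between populations used 12 sums, with library as a block. DESeq2 1.42.0 was an alternative. Doublets were not removed; scanpy 1.11.5 gave scores for an alternative without the highest ones, at 0.8% per 1000 barcodes. Named genes were the 10 called genes of smallest p in each direction at a mean of at least 20 CPM, the gate genes, Sema3g, list genes called (or the 2 highest of a list with none), and for levels the 20 largest ratios at 50 CPM. The fits were tested on simulated data. Coordinates are from GENCODE M21, which matched 323 of 324 genes. The mRFP feature, listed in 4 libraries, was left out of the fits. The CD45-bound libraries were not used here.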

Additional observations from a re-analysis of the deposited data

Results flagged for a closer look

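The day 3 response of arterial cells differed from that of other blood endothelium, by the test of the difference, for 12 of the 20 genes with the smallest p on day 3. The change was more positive in arterial cells by a log2 value of 1.57 for Morrbid, 1.97 for Nts, 1.42 for Tuba1a, 1.33 for Smc2, 2.49 for Plaur, 1.21 for Vwa1, 1.52 for Igfbp3, 1.62 for Sat1 and 1.25 for Anxa1. It was more negative for 9530026P05Rik (-1.38), F8 (-2.12) and Trp53i11 (-2.04). Without the 63 members with a lymphatic UMI the difference did not pass for F8 or Trp53i11 (edgeR adjusted p = 0.569 and 0.603), nor did their day 3 change in members, and it passed for the other 10. The 20 genes were picked by their change in the arterial cells, whose sums also enter the test of the difference. Both the count of 12 and the size of these differences are therefore a description. Over all genes the difference passed for 156 of 13797 (1.13%).

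A feature called mRFP, absent from all comparisons above, is listed in 4 of the 6 libraries, and the labels do not say what it is. A UMI of it was carried by 4 of 110 members (3.64%) in the vehicle Cre-positive library, 34 of 325 (10.5%) in the day 3 Cre-positive one and 10 of 130 (7.69%) in the day 7 Cre-positive one. In the day 7 Cre-negative library it was carried by 0 of 108, which allows a share of up to 2.78% (3 cells of the total). In B cells of the same 4 libraries, which by definition held no Pecam1 or Cdh5 UMI, it was carried by 0 of 349, 1 of 630, 0 of 515 and 0 of 446. Their median depths were 2790.0 to 3284.5 UMIs against 3392.5 to 4835 in members. Other blood endothelium had 5.91%, 9.66% and 6.26% in the 3 Cre-positive libraries.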

How the results depend on the processing

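With 2 libraries per treatment and 1 per combination, counts of called genes moved with most choices. Without an expression filter the counts were 48 for genotype, 635 for day 3, 11 for day 7, 603 for day 7 against day 3, 11 for the day 7 difference between populations and 37 for the genotype difference. DESeq2 gave 2, 43 and 37 for genotype, day 3 and day 7 against day 3, and members thinned to 1000 UMIs gave 2, 38 and 35, with 29, 0 and 1 for the day 3, day 7 and genotype differences. A mean of at least 20 CPM gave 4 for genotype and 158 for day 7 against day 3, a gate of 3 UMIs 10 for genotype and 61 for day 3, at most 5% mitochondrial UMIs 3 for genotype, and removal of the highest doublet scores 1 for day 7. Genotype gave 68 without both vehicle libraries and 44 without both day 7 libraries. Capillary-gated cells as comparator gave 102 and 1 for the day 3 and day 7 differences. Leaving out 1 library gave 0 to 61 for genotype, 0 to 628 for day 3, 0 to 43 for day 7, 0 to 544 for day 7 against day 3, 40 to 311, 2 to 62 and 12 to 78 for the 3 differences.

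Chosen after seeing the data were settings without members with a Gkn3 UMI (1 for genotype, 155 for day 3), without members with cycle UMIs (78 and 67 for day 3 and day 7 against day 3), with a Y-linked UMI only (7 and 2) and without lymphatic-marked members (7 and 29 for the day 7 and genotype differences). Without cycling members Stmn1 turned to log2 -0.94 on day 3 and 1.08 for day 7 against day 3, and Hmgb2 to 0.056 for the latter; the cause was not tested beyond the removal of those cells. RLE scaling left 121 day 3 calls, and gave 59.1% rather than 68.6% of the day 3 differences as more positive. The share of members, given above for thinned cells, was 2.54% and 1.88%, 2.99% and 4.19%, and 1.47% and 2.52% with a gate of 3 UMIs; thinned it was 1.11%, 1.13%, 1.38%, 1.5%, 0.887% and 1.06%. Over all alternatives, the values of the genes named for day 3 kept direction and side of the threshold in 955 of 1165 cases, lost the call in 178 and were reversed in 1. The 1165 include genes not called in the main fit, such as Sema3g and Atg12, which could not lose a call. The 955 therefore overstate how firm the calls are. The labels number no replicates, so no replicate block was fitted; the genotype tests compared libraries within treatment, and the population differences had library as a block. Summed member counts of 452359 and 476007 UMIs in the day 7 Cre-negative and vehicle Cre-positive libraries limit genes of low level.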
